A study of Mus musculus with 6 samples.

Results

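The interferon-stimulated genes of mouse chondrocytes were followed across 6 RNA-seq libraries, each shown on its own. The 44 genes were taken by name from the deposited gene table, which lists 26969 genes, and all 44 were found. All 44 also passed the low-count filter that left 17645 genes for testing. Interferons are secreted signals of infection and tissue damage. Type I interferons and interferon gamma act through receptors that switch on JAK kinases and STAT transcription factors, and type I interferons use a complex holding STAT2 and IRF9 that binds interferon-stimulated response elements in promoters. The genes so induced encode sensors of foreign nucleic acid, factors that block virus entry, translation and release, immunity GTPases, a ubiquitin-like modifier and chemokines, and many of them are present at a low basal level in cells that have not met an interferon.

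The study concerned the effect of osteocyte mitochondria on chondrocytes, the matrix-forming cells of cartilage, and the comparison asks whether the interferon response differs between its groups. One group of 3 libraries was described as mAC_Mito and the other group of 3 as mAC, and all 6 were labelled as wild-type chondrocytes. The labels disagreed on which group had received mitochondria: the mAC_Mito libraries carried the treatment entry vehicle, and the mAC libraries carried the entry mitochondria. Groups were therefore named by their description, and no difference below is a direction of an effect of mitochondria. Mouse strain, age and sex, the dose of mitochondria and the time of exposure were not given in the labels. The text on RNA extraction speaks of an adipose type, which the other labels do not. Nothing in the labels says whether the 3 libraries of a group came from separate animals or cultures, so the p-values measure only the spread between these libraries, which may be technical. Differences are mAC_Mito minus mAC throughout, and the values of a group are given in the order of its libraries 1, 2 and 3.

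Total counts ran from 59116068 to 68378213 per library, and 21437 to 22107 genes had at least 1 count. The chondrocyte label held against its markers: all 17 were detected at a mean of at least 1 FPKM (a level scaled by transcript length and library size), and their summed level was 2921 to 4017 FPKM in mAC_Mito and 2946 to 3667 FPKM in mAC. In bulk RNA, fewer cells of a type and less RNA per cell cannot be told apart. The share of counts from the mitochondrial genome was 2.95% to 5.66% in mAC_Mito and 3.18% to 7.38% in mAC.

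The promoters of 7 of the genes are shown because they carry the sequence by which the group is usually recognised, and because the genes themselves span the range of behaviour described below, including Cxcl10, the gene with the lowest fold change. Each is the 250 bases before the transcription start in RefSeq (GRCm38.p6), on the strand of the gene. Capitals mark the core of the interferon-stimulated response element, searched as GAAA, any 2 bases and GAAA, on either strand, so that a match on the opposite strand reads TTTC, any 2 bases and TTTC. Overlapping matches form 1 run of capitals.
Isg15, chr4:156200819-156201068, minus strand: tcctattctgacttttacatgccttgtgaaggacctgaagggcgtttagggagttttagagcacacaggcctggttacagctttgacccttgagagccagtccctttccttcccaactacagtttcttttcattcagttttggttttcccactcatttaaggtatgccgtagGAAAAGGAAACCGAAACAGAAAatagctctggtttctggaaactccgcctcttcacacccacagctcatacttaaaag
Ifit1, chr19:34640639-34640888, plus strand: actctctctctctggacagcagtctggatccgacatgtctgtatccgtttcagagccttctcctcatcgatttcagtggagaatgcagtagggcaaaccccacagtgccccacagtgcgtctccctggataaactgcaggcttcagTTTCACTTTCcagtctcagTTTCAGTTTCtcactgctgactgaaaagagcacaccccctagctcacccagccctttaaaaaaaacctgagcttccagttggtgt
Ifit3, chr19:34583279-34583528, plus strand: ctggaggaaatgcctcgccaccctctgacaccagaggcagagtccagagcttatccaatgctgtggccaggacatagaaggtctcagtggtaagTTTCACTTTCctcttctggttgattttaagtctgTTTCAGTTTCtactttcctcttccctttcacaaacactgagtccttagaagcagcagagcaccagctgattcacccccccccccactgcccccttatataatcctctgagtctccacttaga
Ifit3b, chr19:34607707-34607956, plus strand: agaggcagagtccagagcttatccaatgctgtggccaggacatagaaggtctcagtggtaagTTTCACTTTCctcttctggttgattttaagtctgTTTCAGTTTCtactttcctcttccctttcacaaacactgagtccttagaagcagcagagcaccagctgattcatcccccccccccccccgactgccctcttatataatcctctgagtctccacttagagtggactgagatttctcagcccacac
Rsad2, chr12:26456453-26456702, minus strand: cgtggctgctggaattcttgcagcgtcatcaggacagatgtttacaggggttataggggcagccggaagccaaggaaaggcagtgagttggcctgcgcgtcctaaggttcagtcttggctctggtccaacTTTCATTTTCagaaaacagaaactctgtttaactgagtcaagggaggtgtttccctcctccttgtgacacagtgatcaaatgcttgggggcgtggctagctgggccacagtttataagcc
Bst2, chr8:71537473-71537722, minus strand: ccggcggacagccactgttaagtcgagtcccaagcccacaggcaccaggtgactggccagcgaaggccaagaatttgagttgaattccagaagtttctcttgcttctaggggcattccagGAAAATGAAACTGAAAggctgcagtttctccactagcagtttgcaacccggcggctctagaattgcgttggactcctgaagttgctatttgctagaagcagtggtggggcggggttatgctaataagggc
Cxcl10, chr5:92348890-92349139, minus strand: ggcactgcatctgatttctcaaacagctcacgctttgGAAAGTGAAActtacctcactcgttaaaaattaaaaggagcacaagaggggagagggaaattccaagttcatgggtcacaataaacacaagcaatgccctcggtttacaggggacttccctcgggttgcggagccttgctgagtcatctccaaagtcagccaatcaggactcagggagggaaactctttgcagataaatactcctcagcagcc
In these windows Isg15 held 3 overlapping matches, Bst2 held 2 overlapping matches, Ifit1, Ifit3 and Ifit3b held 2 separate matches each, and Rsad2 and Cxcl10 held 1 each. Ifit3 and Ifit3b shared the same pair of matches and the bases between them. With the first 50 bases after the start included, 20 of the 34 members that had a RefSeq window held at least 1 match (58.8%), against 3.99% of 27025 genes. These are matches of letters and not measured binding sites. There was no window for Dhx58, Ifi27, Iigp1, Mx1, Mx2, Oas2, Parp14, Rtp4, Usp18 or Zbp1.

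Most members were transcribed at a low level. The mean over 6 libraries was at least 1 FPKM for 20 members and under 1 FPKM for 24. Levels of at least 10 FPKM were reached by 4 members, namely Ifitm3, Ifi27, Lgals3bp and Bst2, in falling order. No member passed the test between the groups (edgeR's quasi-likelihood test with Benjamini-Hochberg adjustment over 17645 genes, adjusted p of 0.99992 for each of the 44), where 2 of all genes tested passed (0.0113%), 1 higher and 1 lower (0.00567% each). Without adjustment, edgeR gave a p under 0.05 for 6 members. Of these, Irf7, Ifit3b, Stat2, Ifit3 and Oasl2 were higher in mAC_Mito and Cxcl10 was lower, where 3.19% of all genes passed the same limit, 2.1% higher and 1.09% lower. The log2 fold change was above 0 for 39 of 44 members, against 50.4% of all genes, with a median of 0.28 over the members and 0.0016 over all genes. That excess of positive values depended on 1 library: without mAC_Mito 3, 23 members were above 0 and 21 below, and the median was 0.011.

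In 34 of the 44 members (77.3%) the highest level in CPM (counts scaled by library size) was in mAC_Mito 3, where 14.6% of all genes had their highest level. In 23 of them the 95% counting interval of mAC_Mito 3 lay above that of every other library, as it did for 2.77% of all genes. Counting intervals are exact Poisson intervals and cover counting error only. The median member level, as log2 CPM minus the gene's mean over the 6 libraries, was -0.05, -0.15 and 0.52 in mAC_Mito, against -0.03, -0.17 and -0.10 in mAC. The libraries mAC_Mito 1 and 2 therefore lay among the mAC libraries, and only mAC_Mito 3 stood above them. The median ratio of mAC_Mito 3 to the median CPM of the other 5 libraries was 1.605, and it ran from 0.587 for Cxcl10 to 4.10 for Oas2. The ratio was at least 2 for 11 members. The exceptions to the pattern were 10 members. Eif2ak2, Cgas, Samd9l and Cxcl10 were highest in mAC 1, Herc6, Oasl1 and Ifi27 in mAC 3, Ifit2 and Mx2 in mAC_Mito 2, and Gbp7 in mAC_Mito 1. In FPKM, in place of CPM, Eif2ak2 and Samd9l were highest in mAC_Mito 3.

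**Figure D1:**
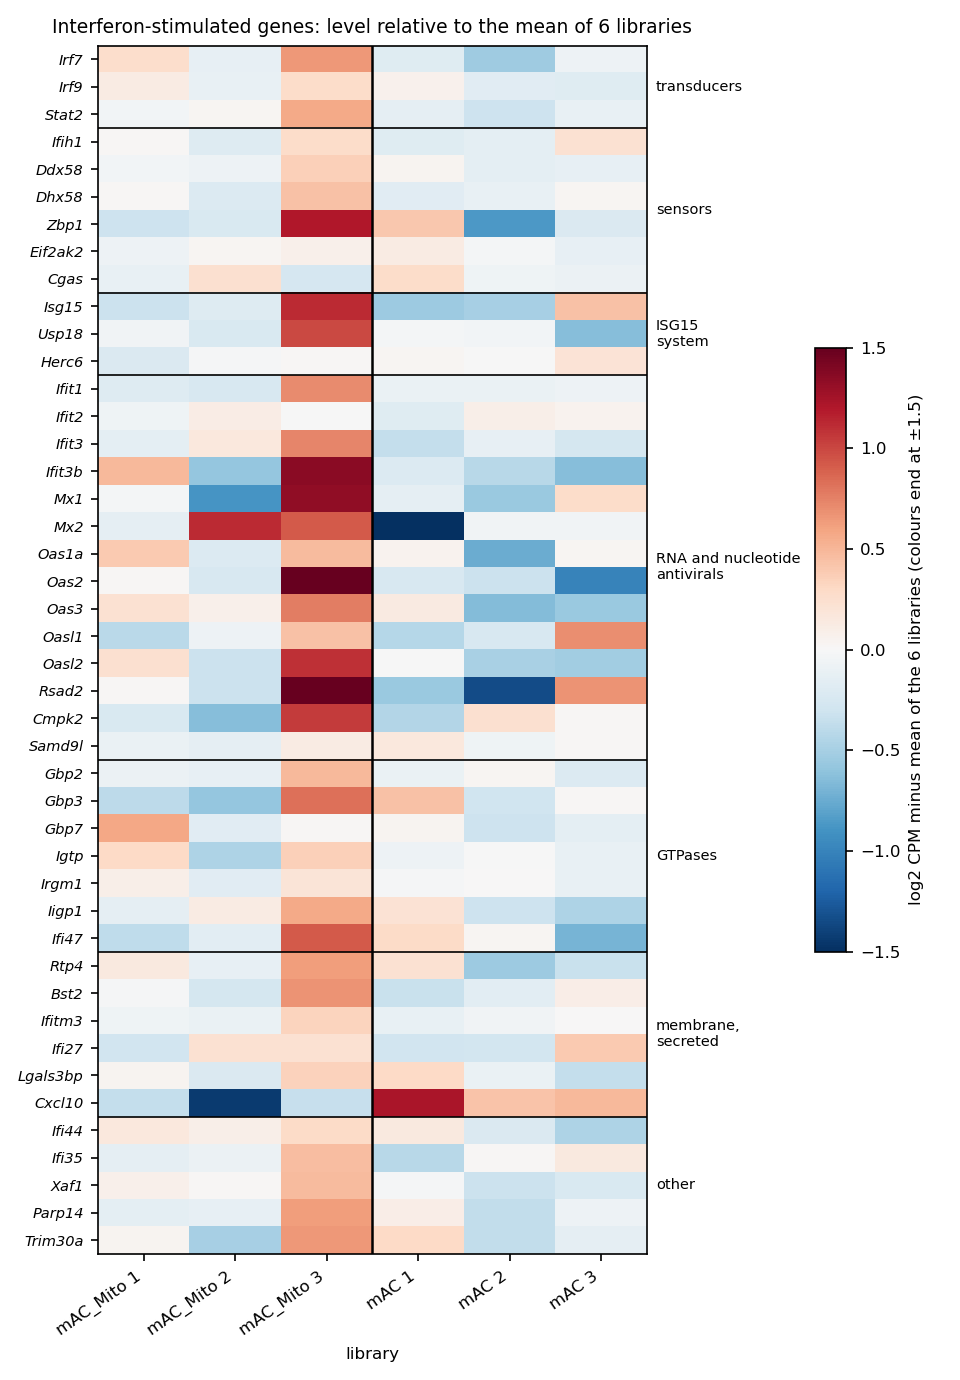
Level of each of the 44 genes (rows, ordered by role) in each library (columns) as log2 CPM minus the gene's mean over the 6 libraries, with colours ending at ±1.5. The column of mAC_Mito 3 is the high one for 34 of the 44 genes, and its median is 0.52.

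Among the signal transducers and transcription factors, Irf7, the factor that amplifies interferon transcription, was at 1.43, 1.18 and 1.99 FPKM in mAC_Mito, against 1.02, 0.853 and 1.22 FPKM in mAC. The highest mAC_Mito library was the third, and mAC_Mito 2 lay below mAC 3, so the groups overlapped. Its log2 fold change was 0.55 (standard error, SE, 0.22, unadjusted p = 0.0352 in edgeR), and 0.33 without mAC_Mito 3. Stat2, a subunit of the interferon-activated complex, was at 2.35, 2.67 and 3.78 FPKM in mAC_Mito, against 2.13, 2.04 and 2.41 FPKM in mAC. The FPKM values of Stat2 overlapped between mAC_Mito 1 and mAC 3, while in CPM every mAC_Mito library lay above every mAC library, by a log2 fold change of 0.40 (SE 0.16, unadjusted p = 0.0383 in edgeR). Without mAC_Mito 3 the log2 fold change of Stat2 was 0.18. Irf9, the DNA-binding subunit of the same complex, was at 4.60, 4.22 and 5.43 FPKM in mAC_Mito, against 4.29, 3.92 and 4.01 FPKM in mAC, with overlapping groups and a log2 fold change of 0.20 (SE 0.13.) Irf9 overlaps Rnf31 on the same strand and Irf7 overlaps Phrf1 on the opposite strand. The counting method is not stated to use strand, so shared reads may have been split between these neighbours. All 3 members of this class were above 0, and Stat2 was 1 of 2 members whose 3 mAC_Mito libraries lay above all 3 mAC libraries, where 3.93% of all genes did so. With Xaf1 higher and Cxcl10 lower, 3 of the 44 members had groups that did not overlap in CPM, against 8.31% of all genes. On the FPKM scale 5 members did not overlap: Oas2, Oas3, Ifi44 and Xaf1 were higher in mAC_Mito and Cxcl10 was lower. The share of all genes that did so in FPKM is not given here, so no excess is read from this count.

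The most abundant nucleic acid sensors were nearly level between the groups. Ddx58, which encodes the RNA sensor RIG-I, was at 4.71, 4.99 and 6.59 FPKM in mAC_Mito, against 4.86, 4.60 and 4.82 FPKM in mAC. Only mAC_Mito 3 lay clear of the other libraries, and the log2 fold change of Ddx58 was 0.17 with all libraries and 0.01 without that one. Eif2ak2, which encodes the RNA-activated kinase PKR, was at 5.43, 6.32 and 6.38 FPKM in mAC_Mito, against 6.04, 5.89 and 5.71 FPKM in mAC, a log2 fold change of 0.01 with a 95% interval of -0.22 to 0.25. Cgas, the cytosolic DNA sensor that signals through STING, was at 1.07, 1.48 and 1.03 FPKM in mAC_Mito, against 1.36, 1.16 and 1.17 FPKM in mAC. Its groups overlapped, its lowest CPM was in mAC_Mito 3, and its log2 fold change was -0.07 with a 95% interval of -0.50 to 0.35. Zbp1, a sensor of left-handed nucleic acid named here after its values were seen, was at 0.183, 0.210 and 0.559 FPKM in mAC_Mito, against 0.290, 0.126 and 0.214 FPKM in mAC. Its 138 counts in mAC_Mito 3 were 2.69 times the median of the other 5 libraries on the CPM scale, while mAC_Mito 1 and 2 lay within the mAC range. Ifih1 and Dhx58, the genes of the RNA sensors MDA5 and LGP2, had log2 fold changes of 0.07 and 0.19, and both were highest in mAC_Mito 3.

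Isg15, the ubiquitin-like protein that is attached to other proteins after interferon, was highest in mAC_Mito 3 at a well-counted level, with mAC 3 the next highest. It was at 4.14, 4.92 and 12.0 FPKM in mAC_Mito, from 223, 235 and 588 counts, against 3.45, 3.85 and 7.61 FPKM in mAC, from 172, 214 and 383 counts. Both groups had their highest value in library 3, and mAC 3 exceeded mAC_Mito 1 and 2. Its log2 fold change was 0.49 with a 95% interval of -0.43 to 1.40, and -0.13 without mAC_Mito 3. Usp18, the protease that removes ISG15 and restrains the type I receptor, was likewise 2.06 times the median of the other libraries in mAC_Mito 3, and its log2 fold change was 0.55 (SE 0.35.) Herc6, the main ISG15 ligase of the mouse, had a log2 fold change of -0.14 and was highest in mAC 3.

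The IFIT genes, whose products bind foreign RNA and block its translation, lie next to one another on chromosome 19 but did not share one pattern. Ifit1 was at 0.978, 1.03 and 1.95 FPKM in mAC_Mito, against 1.02, 1.10 and 1.16 FPKM in mAC, so that mAC_Mito 1 and 2 lay within or below the mAC range and mAC_Mito 3 above them. Ifit2 was at 3.51, 4.31 and 3.90 FPKM in mAC_Mito, against 3.17, 4.09 and 4.12 FPKM in mAC, with a log2 fold change of 0.02 and a 95% interval of -0.24 to 0.29. Ifit3 was at 2.14, 2.85 and 4.18 FPKM in mAC_Mito, against 1.80, 2.29 and 2.14 FPKM in mAC. Its groups overlapped through mAC_Mito 1, and its log2 fold change was 0.53 (SE 0.23, unadjusted p = 0.0446 in edgeR) and 0.25 without mAC_Mito 3. Ifit3b, a near copy of Ifit3, was at 1.0, 0.516 and 1.94 FPKM in mAC_Mito, against 0.598, 0.553 and 0.495 FPKM in mAC. Here mAC_Mito 1 and 3 were the high libraries and mAC_Mito 2 was within the mAC range, with a log2 fold change of 1.04 (SE 0.43, unadjusted p = 0.0368 in edgeR), and 0.46 without mAC_Mito 3. Of all stretches of 75 bases in their transcripts, 41.1% of those of Ifit3 and 35.7% of those of Ifit3b also occur in the other gene, so the division of reads between the pair is uncertain. Their mutual likeness extends to the promoter windows printed above.

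The oligoadenylate synthetases, which make the activator of the nuclease RNase L, and their relatives were among the lowest members, with wide errors. Oas2 was at 0.0587, 0.0504 and 0.213 FPKM in mAC_Mito, from 20, 16 and 66 counts, against 0.0435, 0.0474 and 0.0284 FPKM in mAC, from 15, 17 and 10 counts. All libraries but mAC_Mito 3 lay close together, and the log2 fold change of 1.305, the highest among the members, had a 95% interval of -0.17 to 2.78 and was 0.38 without that library. Oasl2 was at 0.507, 0.371 and 0.980 FPKM in mAC_Mito, against 0.412, 0.318 and 0.321 FPKM in mAC, with a log2 fold change of 0.78 (SE 0.34, unadjusted p = 0.0447 in edgeR), and 0.31 without mAC_Mito 3. Oas1a and Oas3 had log2 fold changes of 0.43 and 0.70, and Oasl1, which was highest in mAC 3, had one of -0.07. Of the 75-base stretches of Oas1a, 47.6% also occur in Oas1g, so its counts are uncertain in the same way as those of the Ifit3 pair. The same limit applies to Herc6 (22.4% shared with Gm45193), Rtp4 (12.4% with Gm45338) and Gbp7 (11.4%, mostly with Gm43802), the other members with more than 10% of shared stretches.

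Of the remaining antiviral effectors, Mx1, Rsad2 and Cmpk2 were highest in mAC_Mito 3 in CPM and Mx2 and Samd9l were not, though in FPKM Samd9l was. Mx2, a dynamin-like antiviral GTPase and the least abundant member, was at 0.0504, 0.127 and 0.110 FPKM in mAC_Mito, against 0.0142, 0.0541 and 0.0567 FPKM in mAC. Its mAC_Mito 2 and 3 were the high libraries and its groups overlapped, with a log2 fold change of 1.14 and a 95% interval of -0.31 to 2.60. Mx1 had a log2 fold change of 0.52, and -0.29 without mAC_Mito 3. Rsad2 and Cmpk2, neighbouring genes for viperin and a mitochondrial nucleotide kinase that together make chain-ending nucleotides, are named with their values after these were seen. Rsad2 was at 0.113, 0.0966 and 0.348 FPKM in mAC_Mito, against 0.0749, 0.0467 and 0.194 FPKM in mAC. As for Isg15, library 3 was the highest in both groups, and the log2 fold change of Rsad2 was 0.81 with all libraries and 0.02 without mAC_Mito 3. Cmpk2 was at 0.124, 0.0987 and 0.324 FPKM in mAC_Mito, against 0.104, 0.181 and 0.155 FPKM in mAC, with a log2 fold change of 0.28, and -0.38 without mAC_Mito 3. Samd9l, a virus restriction factor, was well expressed at 4.08, 4.28 and 5.06 FPKM in mAC_Mito, against 4.74, 4.35 and 4.77 FPKM in mAC, and its log2 fold change was -0.07 (SE 0.12.) Counted over the IFIT, OAS, MX and nucleotide class, 12 of 14 members were above 0 with a median log2 fold change of 0.53, and without mAC_Mito 3 it was 9 of 14 with a median of 0.14.

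**Figure D2:**
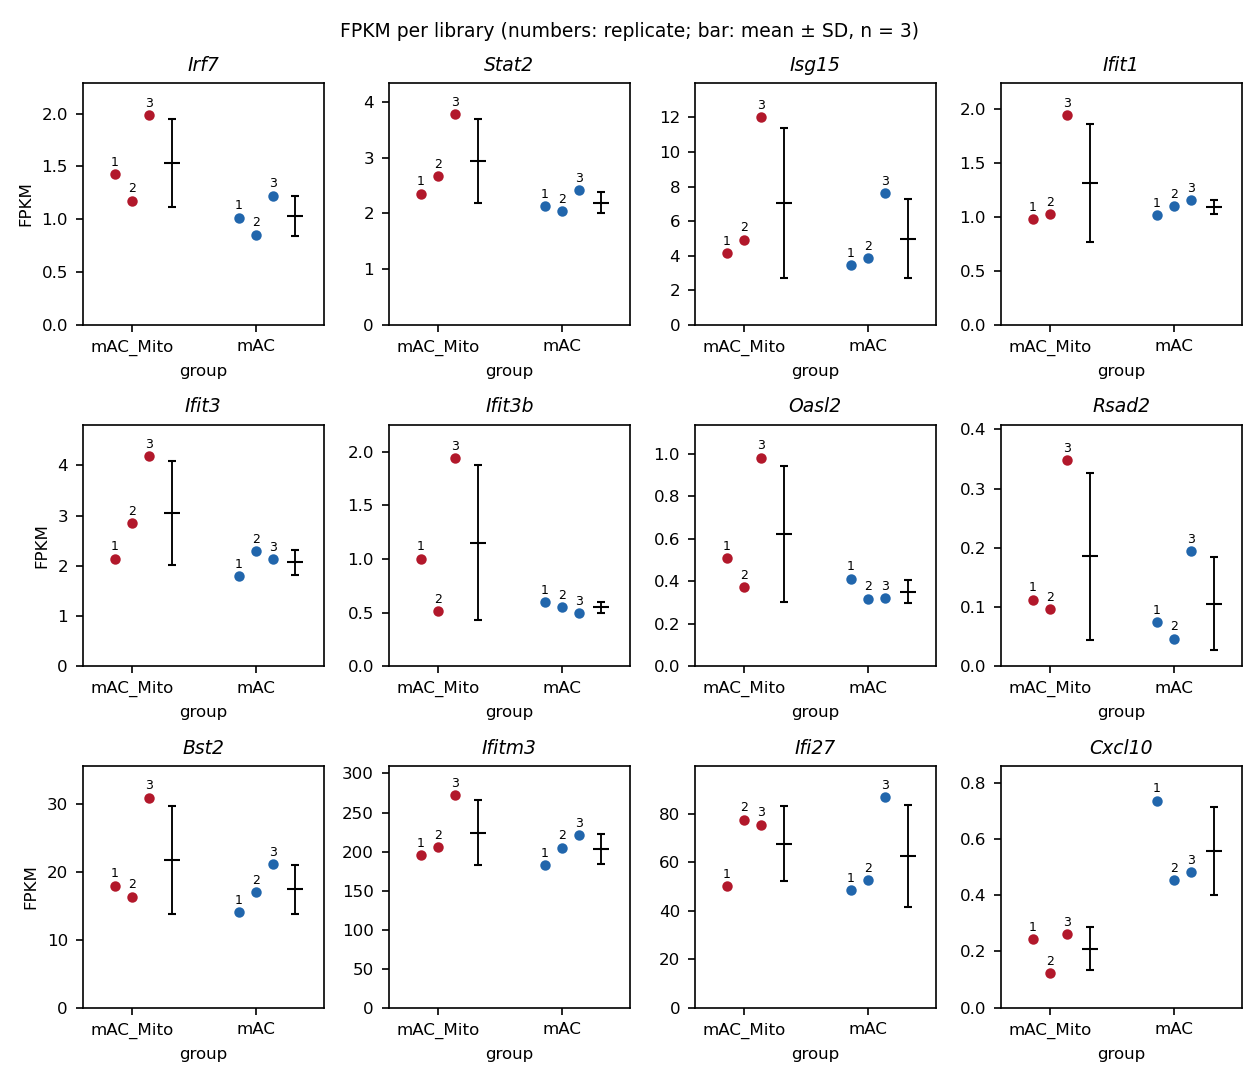
FPKM of selected members in each library (points, numbered by replicate) for mAC_Mito on the left and mAC on the right of each panel, with the mean and SD of 3 libraries as an error bar. mAC_Mito 3 is the top point for Isg15 (12.0 FPKM) and Ifit3 (4.18 FPKM), and the 3 mAC_Mito points of Cxcl10 lie below the 3 mAC points.

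The immunity GTPases, which attack the membranes around intracellular parasites and bacteria and answer chiefly to interferon gamma, had overlapping groups, and 6 of 7 were highest in mAC_Mito 3 (85.7%). Beyond counting error mAC_Mito 3 was highest for only 1 of the 7, Gbp2 (14.3%), against 52.3% of all members. Gbp3 narrowly missed this limit, with a lower bound of 3.853 CPM in mAC_Mito 3 beside an upper bound of 3.867 CPM in mAC 1. Whether the class differed from the other members was not tested. On the same relative log2 CPM scale as above, the median level of the class in mAC_Mito 3 was 0.48, beside 0.52 for all members. Gbp2, a guanylate-binding protein, was at 2.92, 3.09 and 4.61 FPKM in mAC_Mito, against 2.83, 3.33 and 2.92 FPKM in mAC, and its log2 fold change of 0.20 became -0.02 without mAC_Mito 3. Irgm1, a regulator of the immunity-related GTPases, was at 3.23, 2.92 and 3.69 FPKM in mAC_Mito, against 2.91, 3.18 and 3.04 FPKM in mAC, a log2 fold change of 0.09 with a 95% interval of -0.18 to 0.36. Igtp, of the same family, was at 1.90, 1.22 and 2.10 FPKM in mAC_Mito, against 1.42, 1.61 and 1.54 FPKM in mAC, with mAC_Mito 2 the lowest of all 6 libraries. In each of the 3 the groups overlapped. Igtp lies within a same-strand overlap with Irgm2, and 8.37% of its 75-base stretches occur there too. All 7 members of the class, which also holds Gbp3, Gbp7, Iigp1 and Ifi47, were above 0 with a median log2 fold change of 0.20. Gbp3 and Ifi47 were 2.18 and 2.10 times the median CPM of the other 5 libraries in mAC_Mito 3, and their 95% intervals of the log2 fold change were -0.84 to 0.86 and -0.70 to 1.33. Without mAC_Mito 3, 4 of 7 were above 0, with a median of 0.0076.

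The 4 most abundant members encode membrane and secreted proteins, and the groups of each overlapped. Ifitm3, which blocks the fusion of viruses with the cell, was at 195, 206 and 272 FPKM in mAC_Mito, against 183, 205 and 221 FPKM in mAC. It averaged 224 ± 41.5 FPKM in mAC_Mito and 203 ± 19.5 FPKM in mAC (SD, n = 3 each), a difference smaller than the spread of the first group, with a log2 fold change of 0.12 and a 95% interval of -0.16 to 0.41. Ifi27, a small hydrophobic membrane protein, was at 50.1, 77.6 and 75.6 FPKM in mAC_Mito, against 48.6, 52.5 and 86.9 FPKM in mAC. Both groups of Ifi27 held low and high libraries, and the log2 fold change was 0.10 (SE 0.20.) Lgals3bp, a secreted galectin-binding glycoprotein, was at 46.5, 41.8 and 60.5 FPKM in mAC_Mito, against 53.9, 43.8 and 37.9 FPKM in mAC, with overlapping groups and a log2 fold change of 0.10. Bst2, the tetherin that holds budding virus at the cell surface, was at 18.0, 16.4 and 30.9 FPKM in mAC_Mito, against 14.1, 17.0 and 21.2 FPKM in mAC. Its mAC_Mito 1 and 2 fell inside the mAC range, mAC_Mito 3 was 1.79 times the median CPM of the others, and the log2 fold change of 0.31 became -0.02 without that library. Rtp4, a chaperone of membrane receptors that interferon induces, was at 2.34, 2.09 and 3.46 FPKM in mAC_Mito, against 2.40, 1.5 and 1.81 FPKM in mAC, with a log2 fold change of 0.43 (SE 0.25.)

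Cxcl10, the chemokine that draws activated T cells through CXCR3, ran opposite to most members. It was at 0.245, 0.124 and 0.262 FPKM in mAC_Mito, from 44, 20 and 43 counts, against 0.737, 0.452 and 0.482 FPKM in mAC, from 118, 82 and 80 counts. Every mAC_Mito library lay below every mAC library, a separation in this direction that 4.38% of all genes had. It averaged 0.210 ± 0.0752 FPKM in mAC_Mito and 0.557 ± 0.156 FPKM in mAC (SD, n = 3 each). The log2 fold change of Cxcl10 was -1.38 (SE 0.40) with a 95% interval of -2.29 to -0.48, which gave the smallest unadjusted p of the members (0.00694 in edgeR) but an adjusted p of 0.99992. It did not depend on mAC_Mito 3: the log2 fold change was -1.55 without that library and between -1.55 and -1.08 over all 6 fits that left 1 library out. Cxcl10 (chromosome 5, 92346638 to 92348882 in the deposited table) overlaps Art3 on the opposite strand, judged by gene starts and ends. Whether their exons overlap was not checked, and any reads from shared bases cannot be told apart without strand.

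Of the members outside these classes, Xaf1, which binds the apoptosis inhibitor XIAP, was at 0.944, 0.977 and 1.32 FPKM in mAC_Mito, against 0.861, 0.748 and 0.828 FPKM in mAC. Its groups did not overlap, and the log2 fold change was 0.38 with a 95% interval of -0.03 to 0.80, or 0.23 without mAC_Mito 3. Ifi44 was at 0.772, 0.793 and 0.893 FPKM in mAC_Mito, against 0.744, 0.624 and 0.543 FPKM in mAC, with a log2 fold change of 0.33 (SE 0.19.) Its groups overlapped in CPM, although in FPKM all 3 mAC_Mito values lay above the mAC values. Ifi35 was at 5.85, 6.55 and 9.39 FPKM in mAC_Mito, against 4.64, 6.80 and 7.70 FPKM in mAC, with overlapping groups and a log2 fold change of 0.17. Trim30a and Parp14, a ubiquitin ligase family member and an ADP-ribosyltransferase, had log2 fold changes of 0.19 and 0.27 and were highest in mAC_Mito 3. The 17 members outside the rule for full values, of which those described above were chosen after their values were seen, spanned 0.0442 to 1.296 FPKM and 16 to 701 counts per library, and 14 of them were highest in mAC_Mito 3.

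Over the 44 members, 38 of the 95% intervals of the log2 fold change included 0. Their median half-width was 0.54, or 0.42 for the 20 members of at least 1 FPKM and 0.82 for the 24 below it. These intervals are not adjusted for the number of genes tested. For a typical member, a difference smaller than the half-width would not have excluded 0 even without adjustment. Larger differences could also fail the adjusted test. Cxcl10, with a log2 fold change of -1.38 and an interval that excluded 0, had an adjusted p of 0.99992 in edgeR. Leaving out mAC_Mito 3 brought 35 members nearer to 0 and gave 18 the opposite sign, 17 of them from among the 39 that had been above 0. In that fit 1 member, Cxcl10, had an unadjusted p under 0.05 in edgeR.

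**Figure D3:**
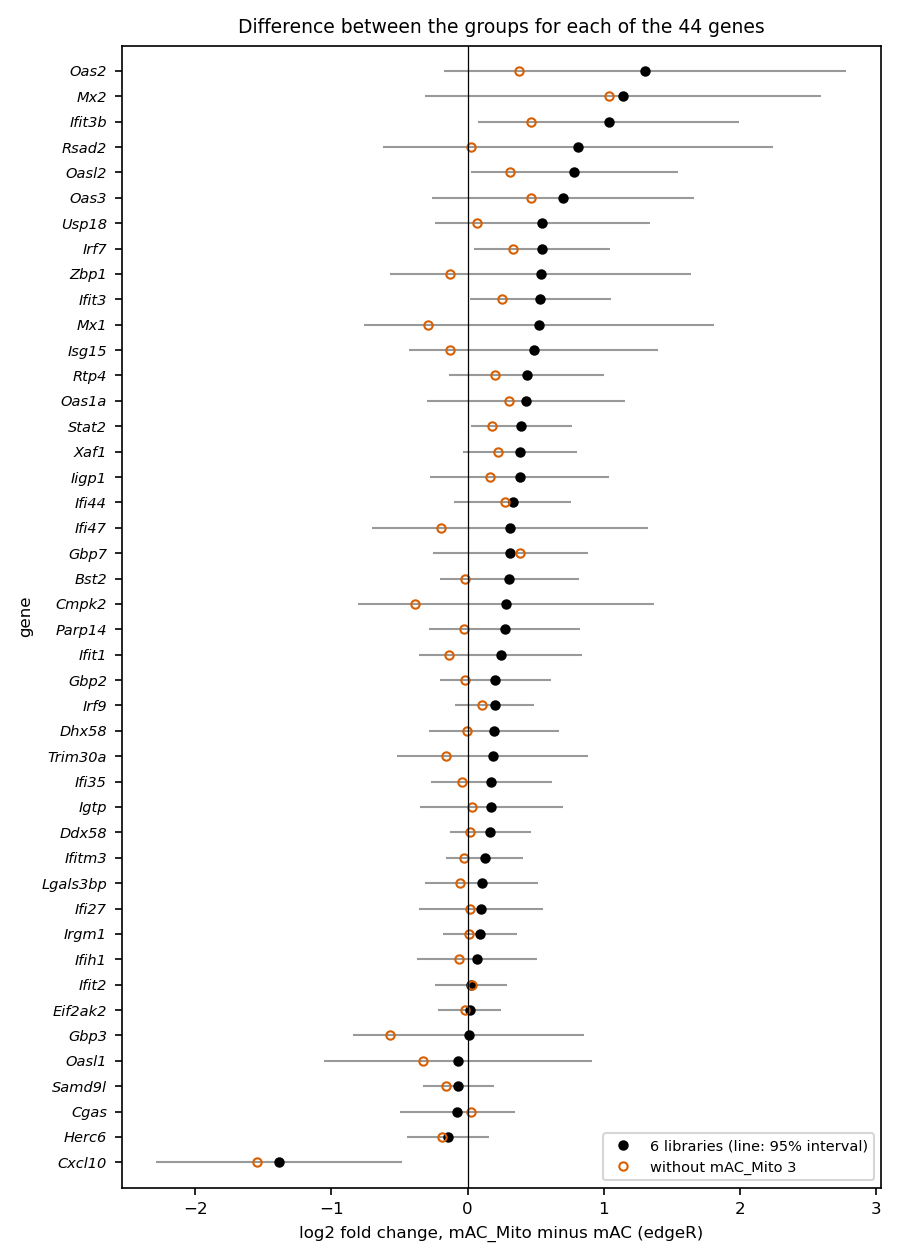
Log2 fold change (mAC_Mito minus mAC, edgeR) of each of the 44 genes with all 6 libraries (filled points, 95% interval as a line) and without mAC_Mito 3 (open points). With 6 libraries 39 points lie above 0, without mAC_Mito 3 only 23 do, and Cxcl10 stays at the low end in both.

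The genes around the pathway were counted from lists chosen beside the members. Of 21 interferon genes listed, 2 were in the table: Ifnb1 had 10, 0 and 0 counts in mAC_Mito and 0 in every mAC library, and Ifnz was at 0.114, 0.167 and 0.254 FPKM in mAC_Mito, against 0.235, 0.131 and 0.208 FPKM in mAC. The 10 counts of Ifnb1, which encodes interferon beta, were in mAC_Mito 1 and not in mAC_Mito 3. The receptors and JAK-STAT components numbered 19, with 8 above 0, a median log2 fold change of -0.05 and 4 highest in mAC_Mito 3 (21.1%). Jak1, the kinase shared by the interferon receptors, was at 19.3, 22.9 and 21.2 FPKM in mAC_Mito, against 20.6, 19.6 and 20.7 FPKM in mAC. Ifnar2, a chain of the type I receptor, was at 12.2, 11.5 and 13.2 FPKM in mAC_Mito, against 13.1, 13.7 and 13.3 FPKM in mAC. The machinery of interferon sensing was thus present in each library at levels that overlapped between the groups. Of the 25 tested genes of nucleic acid sensing, 12 were above 0, the median was -0.02 and 6 were highest in mAC_Mito 3 (24%). Trim25, the ubiquitin ligase of the RIG-I pathway, was at 3.90, 4.90 and 5.02 FPKM in mAC_Mito, against 3.47, 3.73 and 4.22 FPKM in mAC (log2 fold change 0.25, unadjusted p = 0.0464 in edgeR). Rnaseh2b, a subunit of the enzyme that removes ribonucleotides from DNA, was at 2.42, 2.38 and 2.12 FPKM in mAC_Mito, against 2.65, 3.12 and 2.91 FPKM in mAC (log2 fold change -0.34, unadjusted p = 0.0144 in edgeR).

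A further list of 66 tested interferon-stimulated genes that are not members, 5 of which also stand in another list, gave 46 above 0, a median log2 fold change of 0.14 and 33 highest in mAC_Mito 3 (50%), and without that library the median was 0.02. Their excess in mAC_Mito 3 was smaller than that of the 44 members, 77.3% of which were highest there, and the difference between the lists was not tested. Both lists were chosen with earlier results of these data known, so neither is an independent check of the other. Slfn5, a Schlafen family gene, was at 0.363, 0.473 and 0.686 FPKM in mAC_Mito, against 0.289, 0.261 and 0.301 FPKM in mAC, so its groups did not overlap (log2 fold change 0.80, standard error 0.25, unadjusted p = 0.0101 in edgeR). Ifitm2, a relative of Ifitm3 and the most abundant of this list, was at 221, 176 and 200.4 FPKM in mAC_Mito, against 203, 205 and 266 FPKM in mAC, with a log2 fold change of -0.19. No gene of these lists had an adjusted p under 0.05 in edgeR.

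**Figure D4:**
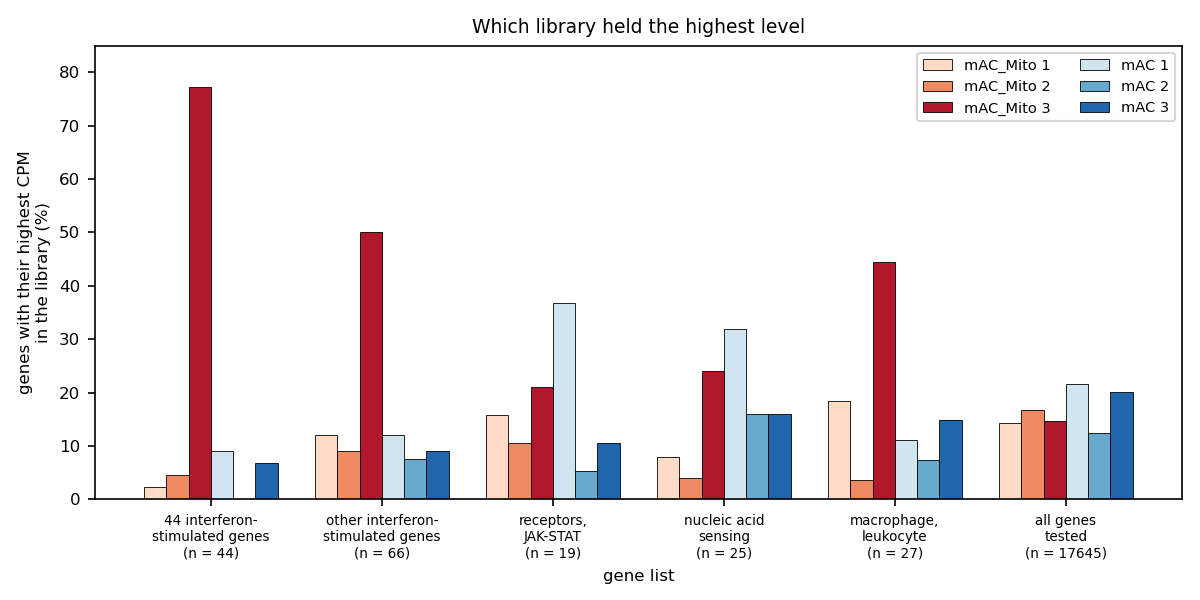
Share of genes (%) whose highest CPM was in each library, for the members, 4 other lists and all genes tested. For the members 77.3% peak in mAC_Mito 3, against 14.6% of all genes and 21.1% of the receptor and JAK-STAT genes.

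Some markers of macrophages and other leukocytes, cells that respond strongly to interferon, were also highest in mAC_Mito 3. The summed level of the 30 markers in the table was 108, 97.1 and 147 FPKM in mAC_Mito, against 85.3, 101 and 107 FPKM in mAC, a range of 97.1 to 147 beside one of 85.3 to 107. Of the 27 tested, 19 were above 0 with a median log2 fold change of 0.17, and 12 were highest in mAC_Mito 3 (44.4%), 7 of them beyond counting error. Without that library the median was 0.03 over 28 markers. Lyz2, the lysozyme of myeloid cells, made up most of the sum in every library and was at 67.8, 57.6 and 96.4 FPKM in mAC_Mito, against 49.0, 62.3 and 68.7 FPKM in mAC. The macrophage surface protein Adgre1 was at 0.858, 0.922 and 1.65 FPKM in mAC_Mito, against 0.543, 0.825 and 0.898 FPKM in mAC, and the receptor Csf1r at 0.505, 0.765 and 1.37 FPKM in mAC_Mito, against 0.478, 0.843 and 0.663 FPKM in mAC. These 3 were highest in mAC_Mito 3, but most of the 27 tested markers were not. In CPM 2 of the 27, Cd74 and Spi1, were lowest there, and both are named after their values were seen. Cd74 was at 1.41, 0.941 and 0.783 FPKM in mAC_Mito, against 0.931, 1.57 and 1.02 FPKM in mAC. Spi1 was at 0.372, 0.283 and 0.248 FPKM in mAC_Mito, against 0.313, 0.361 and 0.267 FPKM in mAC. Cd68 was at 9.02, 6.33 and 8.99 FPKM in mAC_Mito, against 9.59, 7.28 and 5.77 FPKM in mAC, and the pan-leukocyte gene Ptprc was near 0 throughout, at 0.052, 0.062 and 0.066 FPKM in mAC_Mito, against 0.023, 0.046 and 0.092 FPKM in mAC. The B-cell gene Cd79a had 2, 0 and 0 counts in mAC_Mito and 0, 7 and 0 counts in mAC, and the T-cell gene Cd3e was not used here. None of the 7 tested endothelial markers and 1 of the 6 tested osteocyte and osteoblast markers was highest in mAC_Mito 3. Of the osteocyte and osteoblast markers 5 of 6 were above 0. The summed level of the 9 in the table was 21.5 to 23.1 FPKM in mAC_Mito and 18.4 to 19.5 FPKM in mAC, so the groups did not overlap in FPKM. Their summed counts, not scaled by library size, did overlap, at 4266, 3867 and 4329 in mAC_Mito, against 3825, 4280 and 3717 in mAC. The median of the 6 tested, as log2 CPM minus the gene's mean, was 0.23, -0.03 and 0.23 in mAC_Mito. In mAC it was -0.10, -0.02 and -0.14, so the groups overlapped on that scale too. Bglap2, an osteocalcin gene, was at 4.05, 2.49 and 3.56 FPKM in mAC_Mito, against 1.0, 1.35 and 1.75 FPKM in mAC, with every mAC_Mito library above every mAC library (log2 fold change 1.296, SE 0.33, unadjusted p = 0.00288 and adjusted p = 0.99992 in edgeR). The other tested markers of this list, Phex, Bglap, Ibsp, Sp7 and Alpl, had overlapping groups, with log2 fold changes of 0.28, -0.15, 0.13, 0.07 and 0.06. The part of these cells and of the leukocytes in the levels of the interferon-stimulated genes was not tested.

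**Figure D5:**
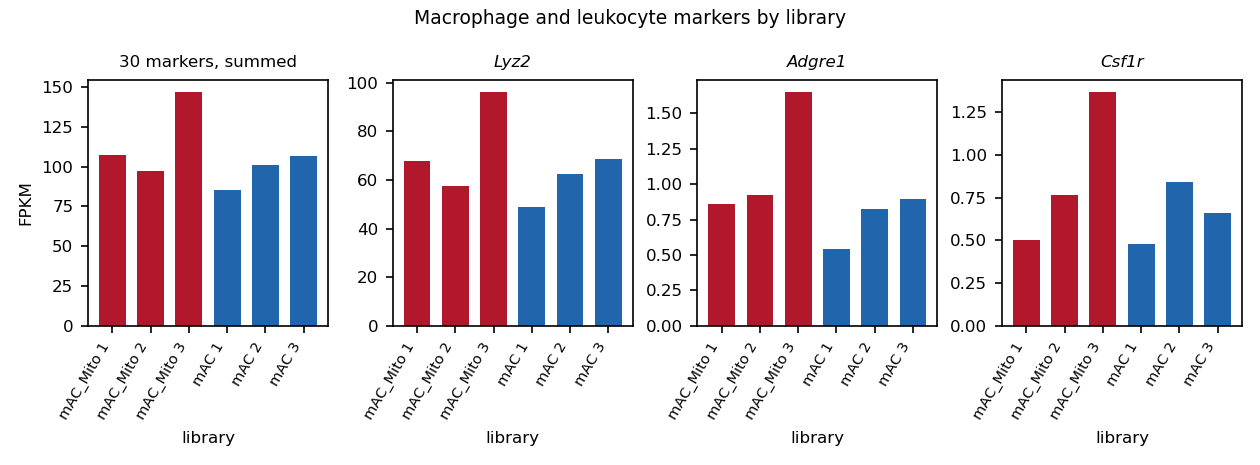
Level in FPKM of the 30 macrophage and leukocyte markers summed, and of Lyz2, Adgre1 and Csf1r, in each library (bars). In each panel mAC_Mito 3 is the highest, with 147 FPKM for the sum, against 85.3 to 107 FPKM in the mAC libraries. Lyz2 alone gives 96.4 of the 147 FPKM. Of the 27 tested markers 12 peak in mAC_Mito 3, and Cd68 and Ptprc, which are not drawn, do not.

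Of the 20 members with a match to the response element core in their window, 17 were highest in mAC_Mito 3 in CPM, as were 9 of the 14 with a window and no match. Cxcl10, Eif2ak2 and Gbp7 were the 3 with a match that were not, though Eif2ak2 was highest in mAC_Mito 3 in FPKM. The core thus stood both at genes that were highest in that library and at genes that were not.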

How the data were processed

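Poly(A) RNA of mouse chondrocytes was sequenced in paired ends in 6 libraries, 3 described as mAC_Mito and 3 as mAC. The authors deposited 1 gene table with a read count and an FPKM value per gene and library. Bowtie 0.12.2, HISAT2 2.0 and StringTie 1.3.0 and the build mm8 are listed, without their roles, per the submitters' processing notes. The gene positions in the deposited table match GENCODE M21 (GRCm38) instead: 26784 of 26902 shared gene IDs (99.6%) have a start or an end in common with it, so RefSeq windows of GRCm38.p6 were used, and the table's positions are given as GRCm38. How reads shared between genes were assigned is not given in the sources used here.

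The deposited counts were tested with edgeR 4.0.16 in R 4.3.3 (filterByExpr with a minimum count of 10, TMM scaling, quasi-likelihood test, two-sided, group as the only term, Benjamini-Hochberg adjustment over 17645 genes, threshold 0.05). CPM values are counts scaled by the TMM-adjusted library size. The deposited FPKM values were used for levels. The alternatives were DESeq2 1.42.0, size factors of its kind in edgeR, no filter, a filter on FPKM, limma 3.58.1 on log2(FPKM + 1) and log2(FPKM + 0.1), the replicate number as a block, and each library left out. Of these tests, only the edgeR one was tried on simulated counts. It called 89 of 100 genes with a log2 fold change of 1 in size, and 93 of 100 with one of 2. It also called 14 unchanged genes, and 0 genes in a simulation without changes. The changed genes had a mean of at least 1 CPM, so less abundant members such as Mx2 were not covered. Every pair of libraries differed by more than sampling noise (chi-square per degree of freedom 23.6 to 180), so all were kept.

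The members and the other lists were chosen with earlier results of these data known. Values in every library were given for members with a mean FPKM of at least 1, the 10 with the smallest p, and Cxcl10, Isg15, Irf7, Ifit1, Ifit3 and Cgas. Of the other lists they were given for genes of high level or small p, for Cd74 and Spi1, and for fixed leukocyte markers. Of those markers, 4 were not used here. One gene of the pathway is not reported here.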

Additional observations from a re-analysis of the deposited data

How the results depend on the processing

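No member had an adjusted p under 0.05 under any alternative run, by edgeR, DESeq2 or limma, and 6 had an unadjusted p under 0.05 in edgeR, against 6 in DESeq2 and 1 in limma on log2(FPKM + 1). Over all genes the count of calls was 2, against 4 in DESeq2, 0 without a low-count filter, 1 in limma on log2(FPKM + 1) and 0 to 4 when a library was left out, with 0 both without mAC_Mito 1 and without mAC_Mito 3. The median log2 fold change of the members was 0.28 and ran from 0.011 (without mAC_Mito 3) to 0.42 (without mAC_Mito 2). It was 0.11 in limma on log2(FPKM + 1), a scale that shrinks low genes, and 0.11 to 0.28 over all alternatives that kept the 6 libraries. The groups did not overlap for 3 members, against 1 of the 20 that passed the FPKM filter and 5 in FPKM in place of CPM. When a library was left out it was 5 to 14, where fewer libraries make separation easier. Shares of all genes under these alternatives are not given here, so no excess is read from these counts. Among 20 members past the FPKM filter, 15 were highest in mAC_Mito 3, and 36 of 44 were in FPKM. Shares of all genes are not given for these counts either.

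The sign of 11 named members turned when a library was left out, and under no other alternative. Their log2 fold changes then ran from -0.13 to 0.88 for Isg15, -0.13 to 0.41 for Ifit1, -0.0502 to 0.0697 for Ifit2, -0.0395 to 0.0828 for Eif2ak2, -0.23 to 0.0537 for Cgas, -0.0199 to 0.31 for Gbp2, -0.0192 to 0.49 for Bst2, -0.0254 to 0.20 for Ifitm3, -0.0523 to 0.30 for Lgals3bp, -0.0440 to 0.29 for Ifi35 and -0.0208 to 0.36 for Ifi27. The most extreme value of opposite sign came without mAC_Mito 3 for Isg15, Ifit1, Gbp2, Bst2, Ifitm3, Lgals3bp and Ifi35. It came without mAC 1 for Ifit2 and Cgas, without mAC 2 for Ifi27 and without mAC 3 for Eif2ak2. The cause was not tested.

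The shared replicate numbers were not shown to pair the libraries: the correlations of deviations between same-numbered libraries were 0.124, -0.06 and -0.012, and not every library correlated best with its own number. With the replicate block, 2 genes and 0 members were called, and the median was 0.22. Low counts, down to 4 for Mx2 in mAC 1 and 10 for Oas2 in mAC 3, limit what could be detected for the least abundant members.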
